A study of Mus musculus with 17 samples.

Results

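The replication-cluster histone genes are the rows of the deposited table whose symbols begin with Hist1h, Hist2h, Hist3h or Hist4h. The rule found 68 of the 23282 genes, chosen by name and not by any measured value. They comprised 6 H1, 18 H2A, 19 H2B, 12 H3 and 13 H4 genes, of which 54 lay in the *Hist1* cluster on chromosome 13, 10 in *Hist2* on chromosome 3, 3 in *Hist3* on chromosome 11 and 1, *Hist4h4*, on chromosome 6. Cells of 3 stages were sorted by flow cytometry from the testes of C57BL/6 mice for RNA-seq: spermatogonia (SPG), spermatocytes before leptotene (pre-leptotene, PreL), and spermatocytes in leptotene or zygotene (LZ). WT mice were labelled as wild type, and *Nat10*-SKO mice carried a floxed *Nat10* allele (exons 4 and 5) over a deleted one together with a Cre recombinase driven from *Stra8*, a gene of germ cells entering meiosis, so that the surrounding somatic cells of the testis kept the floxed allele. There were 3 WT and 3 SKO libraries of SPG, 3 and 3 of PreL, and 2 and 3 of LZ. The age of the mice behind each library is not given in the sources used here, and although the study speaks of biological replicates, whether each library came from a separate animal is not given. The p-values below therefore measure the spread between these samples.

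Replication-dependent histone genes supply the histones that package newly copied DNA, and their mRNA accumulates in S phase. Most lack introns, and their mRNA ends in a conserved stem-loop instead of a poly(A) tail. The stem-loop-binding protein SLBP and the U7 snRNP direct this cleavage. Some members can also be read through to a downstream polyadenylation site, which gives a polyadenylated mRNA. Spermatocytes replace part of these histones by testis variants made in the same clusters, H1t (*Hist1h1t*), TH2A (*Hist1h2aa*) and TH2B (*Hist1h2ba*).

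The stem-loop was searched for in the annotated transcripts (GENCODE, GRCm38), since it decides how the mRNA of these genes ends and the libraries were primed with oligo(dT). It was found in 42 of the 68 genes, in 5 forms, shown here as DNA with the arms of the stem in capitals and the loop in lower case.
Form of 26 genes of H1, H2A, H2B and H3, among them *Hist1h2bp* and *Hist3h2a*: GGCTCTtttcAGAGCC
Form of 7 H4 genes, among them *Hist1h4c*, *Hist1h4d* and *Hist1h4h*: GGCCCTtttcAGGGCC
Form of 6 genes, among them *Hist1h1t*: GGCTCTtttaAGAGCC
Form of *Hist1h4i* and *Hist2h4*: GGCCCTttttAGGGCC
Form of *Hist2h2ac*: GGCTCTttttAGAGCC
The stem GGCCCT was found in H4 genes and the stem GGCTCT in genes of the other types. The 26 genes without a match in their annotated transcripts included *Hist1h2ba*, *Hist1h2aa*, *Hist1h2bc*, *Hist1h1a* and *Hist2h2be*. For *Hist1h2aa*, *Hist1h2ba* and *Hist1h1a*, the annotated transcripts were 390, 384 and 741 bases long.

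Promoter sequence from 250 bases before to 50 bases after the start (RefSeq, GRCm38.p6) was at hand for 62 of the 68 genes. It was searched on both strands for CCAAT, for the TATA box letters TATAAA and for the octamer ATTTGCAT. The promoters of 3 genes that the comparisons below turn on are printed, with these motifs in capitals.
*Hist1h2ba*, minus strand, chr13:23934107-23934406: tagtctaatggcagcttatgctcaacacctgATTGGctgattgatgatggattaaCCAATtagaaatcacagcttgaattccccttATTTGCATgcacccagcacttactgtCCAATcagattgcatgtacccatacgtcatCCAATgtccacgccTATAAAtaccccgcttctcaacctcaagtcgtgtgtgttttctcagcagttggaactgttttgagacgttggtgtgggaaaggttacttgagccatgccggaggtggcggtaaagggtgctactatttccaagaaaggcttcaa
*Hist1h2bp*, plus strand, chr13:21787238-21787537: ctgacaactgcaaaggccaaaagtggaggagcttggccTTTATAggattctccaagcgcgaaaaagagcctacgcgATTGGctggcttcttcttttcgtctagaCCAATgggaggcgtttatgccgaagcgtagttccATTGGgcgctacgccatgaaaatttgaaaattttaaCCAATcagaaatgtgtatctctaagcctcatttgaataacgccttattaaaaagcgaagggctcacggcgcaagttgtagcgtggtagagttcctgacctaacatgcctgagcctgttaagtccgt
*Hist1h4h*, plus strand, chr13:23530794-23531093: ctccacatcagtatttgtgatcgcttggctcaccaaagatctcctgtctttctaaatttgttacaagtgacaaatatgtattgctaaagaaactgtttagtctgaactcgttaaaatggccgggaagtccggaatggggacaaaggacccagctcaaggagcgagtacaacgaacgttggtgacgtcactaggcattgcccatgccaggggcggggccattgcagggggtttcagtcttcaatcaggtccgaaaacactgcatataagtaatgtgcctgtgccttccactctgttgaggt
The letters CCAAT stood in 85.5% of the members' promoters, against 37.4% of all 32851 promoters of the same length. They were present in 100% of those of H1, H2A, H2B and H3 genes and in 25% of those of H4 genes. TATAAA was found in 56.5% of the members against 13.6% of all promoters, and ATTTGCAT in 21% against 1.74%. The octamer stood in 38.9% of the H2A and 37.5% of the H2B promoters and in none of H1, H3 or H4. For *Hist1h2be*, which has 2 entries, the first was counted, which lacks the octamer, and the other holds it. A match to these letters is a description and not a bound site, and no match says only that the letters are not in this window.

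The libraries held 5812380 to 13820953 recovered reads each. Of these, 255 to 1929 reads per library fell on the 68 genes, and 26 to 49 of the genes had at least 1 read in a given library. The reads carry no molecular identifiers and PCR copies count as separate reads, so counting intervals and the limit of 3 reads used below cover counting error only. As a check of the labels, *Nat10* stood at 23.1 to 37.2 RPM (reads per 1000000 recovered reads of the library) in the WT libraries and at 6.83 to 22.6 RPM in the SKO libraries. Its log2 fold change was −1.29 in PreL (limma, adjusted p = 0.00591) and −1.47 in LZ (adjusted p = 0.00469). In SPG it was −0.87 (adjusted p = 0.0326), short of the fold threshold. Markers of early meiosis summed to 3203 to 9546 RPM and those of differentiating spermatogonia to 420 to 864 RPM, so both were present in all libraries. Their sums moved with genotype, given here as SKO against WT. The former were 4638 to 5047 against 3203 to 3404 RPM in SPG, 6783 to 9546 against 5119 to 5940 RPM in PreL and 3549 to 5338 against 5289 to 6181 RPM in LZ. The latter were 748 to 864 against 550 to 638 RPM in SPG, 607 to 692 against 518 to 617 RPM in PreL and 420 to 484 against 572 to 698 RPM in LZ. Markers of later germ cells and of somatic cells also differed between groups, and their levels are given beside the results they move with. In such bulk samples, fewer cells of a type and less RNA per cell cannot be told apart.

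Most of the 68 genes were hardly detected. In none of the 17 libraries did *Hist1h2ao*, *Hist1h2ap*, *Hist1h2bf*, *Hist1h2bq* or *Hist2h3b* have a read, nor did another 2 of the genes, so that 7 were at 0 throughout. A further 12, among them *Hist1h2ad*, *Hist1h2ah*, *Hist1h3d*, *Hist1h4m* and *Hist2h4*, never exceeded 3 reads. Only 18 genes reached a mean of 10 reads, and 1, *Hist1h2ba*, a mean of 100 reads. By type these were 3 of 6 H1, 2 of 18 H2A, 7 of 19 H2B, 1 of 12 H3 and 5 of 13 H4 genes. The histone genes outside the clusters whose mRNA is polyadenylated, such as *H3f3b* and *H2afz*, took 4504 to 20542 RPM over 10 genes in the same libraries, and the 68 cluster genes took 22.01 to 141.1 RPM, neither corrected for length.

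The annotated form of the transcript and the sequence shared with other genes were set beside these levels as descriptions. Of the 21 genes whose annotated transcript ended within 100 bases of the stem-loop, 4 had a mean of at least 10 reads. Of the 21 whose transcript went on for more than 100 bases, 9 did, and of the 26 with no stem-loop in the annotation, 5 did. A polyadenylation signal (AATAAA or ATTAAA) in the last 50 bases was found in 17 genes, of which 9 had a mean of at least 10 reads, against 9 of the 51 without it. Shared sequence moved with the same split. The authors counted uniquely mapped reads, and genes of these families are near-identical in their coding parts. All 18 genes that reached a mean of 10 reads had between 59.9% and 100% of their 100-base windows to themselves. Among the 24 genes with under 50% of windows of their own, 0 reached that mean and 13 had at most 3 reads in every library, so a low value of such a gene is uncertain. The 44 genes with at least 50% held 95.3% of all reads on the clusters. How far transcript ends, unique mapping and transcription each set the levels was not tested.

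**Figure D1:**
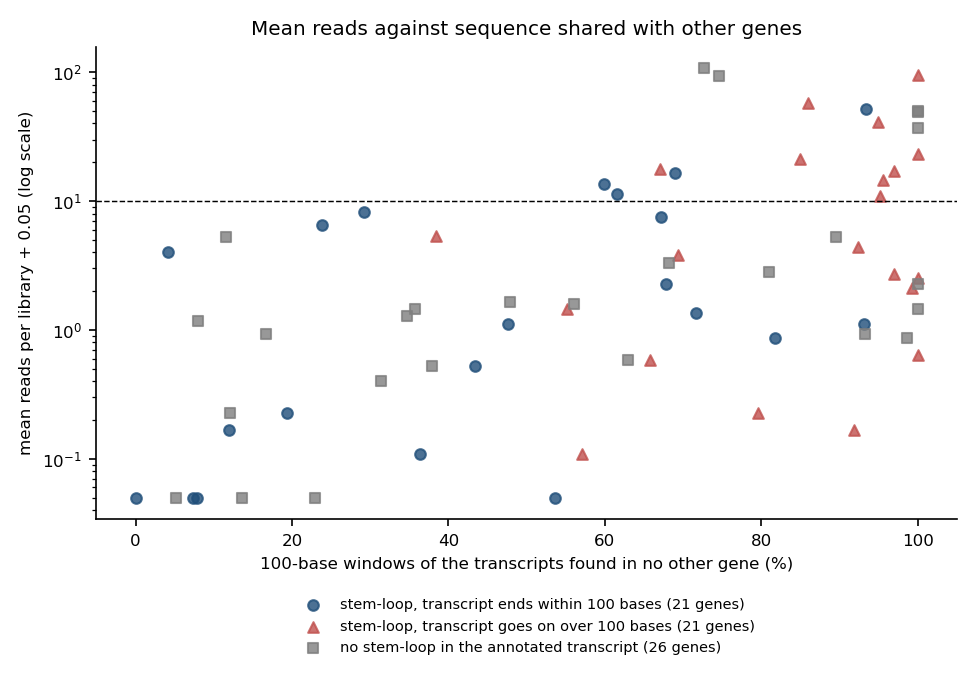
Each point is 1 of the 68 genes. The x axis gives the percentage of 100-base windows of its annotated transcripts that are found in no gene elsewhere in the annotation, and the y axis its mean reads per library plus 0.05 on a log scale. Colour and shape mark the stem-loop class, and the dashed line marks a mean of 10 reads. The 18 genes above the line all lie at 59.9% or higher, and 9 of them have a transcript that goes on for more than 100 bases past the stem-loop.

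Summed over the 68 genes, the level in WT was lowest in SPG and highest in LZ. It was 22.94 ± 1.305 RPM in WT SPG (SD, n = 3), 82.57 ± 9.018 RPM in WT PreL (n = 3) and 137.9 ± 4.644 RPM in WT LZ (n = 2). The SKO libraries gave 37.36 ± 12.58 RPM in SPG, 113.3 ± 20.1 RPM in PreL and 73.75 ± 9.255 RPM in LZ (n = 3 each). In each stage the libraries of both genotypes were apart in this sum except in PreL, where SKO replicate 3 (90.15 RPM) fell just below WT replicate 1 (90.93 RPM). The ratio of SKO to WT means was 1.63 in SPG, 1.37 in PreL and 0.535 in LZ. With median-of-ratios size factors, which are set by the typical gene, the LZ ratio was 0.683, and with the ERCC-calibrated values as deposited the PreL ratio was 2.19. Without the 3 testis variants, the ratios were 1.56, 1.47 and 0.541. No test was made of these sums, which a few genes dominate.

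The 5 histone types did not follow one course. H2B genes took the most reads of the 5 types in every group, with 70.68 ± 6.632 RPM in WT LZ against 35.23 ± 4.296 RPM in SKO LZ. H2A genes stood at 35.65 ± 0.2828 RPM in WT LZ and 10.62 ± 3.095 RPM in SKO LZ. H4 genes were at 14.31 ± 1.463 RPM in WT PreL and 25.12 ± 0.9496 RPM in SKO PreL, with no overlap. H3 genes took the fewest reads in every group but WT SPG, where the H1 genes stood lower at 2.487 ± 1.217 RPM. The H3 genes stood at 2.708 ± 1.096 RPM in WT SPG and 0.1542 ± 0.05617 RPM in SKO SPG, with SKO lower. In PreL they were at 0.5623 ± 0.09308 RPM in WT and higher, at 2.904 ± 1.615 RPM, in SKO, and neither stage had overlap. In LZ they were at 6.874 ± 0.4085 RPM in WT and 4.794 ± 0.9772 RPM in SKO.

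**Figure D2:**
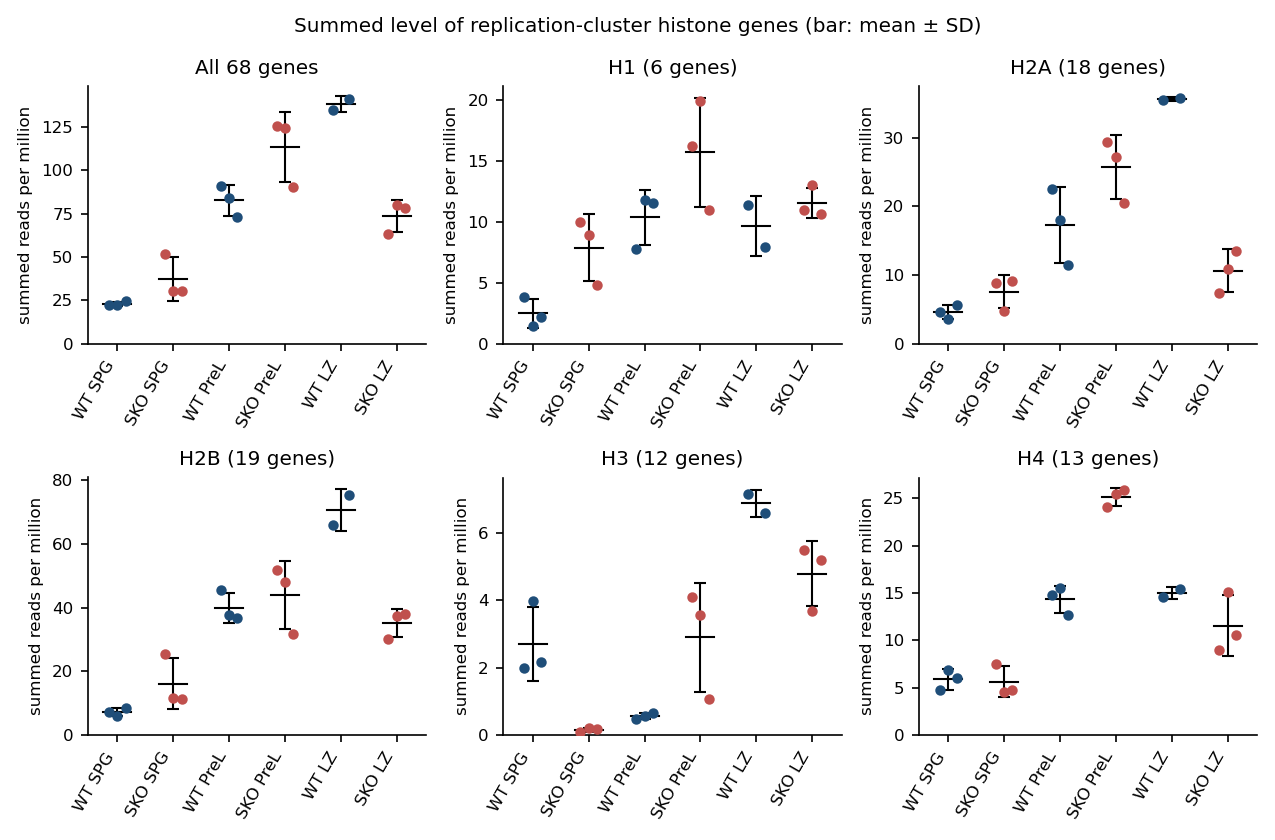
Summed RPM of all 68 genes and of each histone type (y axes, linear, from 0) in the 6 groups (x axis). Points are libraries (blue WT, red SKO) and black bars the mean ± SD. The 2 WT LZ libraries, at 134.6 and 141.1 RPM for all genes, lie above the 3 SKO LZ libraries, at 63.14 to 80.16 RPM.

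The first question was which of these genes change as WT spermatogonia proceed to pre-leptotene, the stage of the last DNA replication before meiosis. A gene was called where its Benjamini-Hochberg adjusted p was under 0.05 and its log2 fold change beyond 1 in either direction, on log2(rescaled value + 10), a scale that understates the change of low genes. Of the 14 members tested in WT PreL against WT SPG, 4 were called higher and 0 lower by limma, against 2.54% and 1.21% of all genes tested. DESeq2 called 6 higher and 1 lower, edgeR 4 and 0, and 8 of the 14 had an unadjusted p under 0.05. The share of all genes under that unadjusted p was not computed, here or in the comparisons below. Such counts are therefore not read as results about the members. The median log2 fold change was 1.58 over the 14 members and 0.01 over all genes. Called genes are described below by the same libraries that the call used, so a lack of overlap in them is no further support.

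TH2B led this group. *Hist1h2ba* (chr13:23933773-23934156, minus strand) stood at 0.690, 0.777 and 1.83 RPM in the WT SPG libraries and at 20.4, 16.2 and 16.04 RPM in WT PreL. The groups were far apart, and the log2 fold change was 3.43 ± 0.39 (SE, adjusted p = 0.00247), called under each of its 15 alternatives. *Hist1h2bm*, a replicative H2B gene, was at 1.30, 2.93 and 1.91 RPM in SPG and at 15.03, 7.57 and 9.33 RPM in PreL, again without overlap. It rose by 2.06 ± 0.42 (adjusted p = 0.0187). The linker histone gene *Hist1h1a* rose by 1.93 ± 0.46 (adjusted p = 0.0317) and the H4 gene *Hist1h4c* by 1.87 ± 0.40 (adjusted p = 0.0223). TH2A lies head to head with TH2B, their annotated starts 305 bases apart. *Hist1h2aa* was at 1.92, 0.173 and 1.33 RPM in SPG and at 10.6, 5.11 and 3.36 RPM in PreL, higher in all 3 PreL libraries, with a log2 fold change of 1.99 (adjusted p = 0.0515) that did not pass in limma. It passed in DESeq2 (adjusted p = 0.0199), with a pseudocount of 50 (adjusted p = 0.0457) and on the ERCC-calibrated scale (adjusted p = 0.0487). A gene annotated on its opposite strand overlaps it, and strandedness is not given. H1t was scarce, with at most 2 reads in any WT SPG library and at most 4 in any WT PreL library.
The call of *Hist1h1a* was lost on leaving out any 1 of WT SPG replicates 1, 2 and 3 or WT PreL replicates 2 and 4. That of *Hist1h4c* was lost without WT SPG replicate 1 or 3 or WT PreL replicate 1 or 2, and that of *Hist1h2bm* without WT SPG replicate 3 or WT PreL replicate 1.

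None of 10 transcription factors and coactivators of histone genes, 12 factors of histone mRNA 3′ processing, 9 of its decay, 15 of canonical polyadenylation, 13 histone chaperones or 20 S phase genes was called at this step. Of 10 replacement histone genes, 3 were called higher, the linker histone genes *H1fx* (log2 fold change 1.61, adjusted p = 0.0147) and *H1f0* (1.22, adjusted p = 0.00417) and *H2afx* (1.30, adjusted p = 0.0132). Markers of later germ cells moved as well, with 5 of 10 late spermatocyte and 4 of 14 spermatid markers called higher and summed levels of 483 to 1327 RPM in WT PreL against 286 to 385 RPM in WT SPG for the former. Of 6 Sertoli cell markers tested 3 were called higher, with 73.7 to 75.9 RPM in WT PreL against 24.3 to 38.9 RPM in WT SPG. Their part in the members' changes was not tested.

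From WT PreL to WT LZ, when replication is over, 5 of 21 members tested were called higher and 0 lower by limma, against 18.8% and 7.8% of all genes tested. Both edgeR and DESeq2 called the same 5 higher and 0 lower, and 7 of the 21 had an unadjusted p under 0.05. The members' share of higher calls, 23.8%, was near that of all genes. This comparison and the one before share the 3 WT PreL libraries. *Hist1h2bc*, an H2B gene, stood at 1.40, 1.32 and 0.0932 RPM in WT PreL and at 23.8 and 5.41 RPM in WT LZ (log2 fold change 3.23 ± 0.77, adjusted p = 0.0126). The H3 gene *Hist2h3c1* was at 0.0933, 0.0946 and 0.28 RPM in PreL and at 4.27 and 4.02 RPM in LZ, with no overlap (2.92 ± 0.62, adjusted p = 0.00817). The H2A gene *Hist2h2aa1* had 1, 1 and 2 reads in PreL and 25 and 30 in LZ (2.08 ± 0.65, adjusted p = 0.035). Only 4.11% of its windows are its own, so with uniquely mapped reads counted its value is uncertain. Another gene annotated on the same strand overlaps exons of *Hist2h2aa1* and *Hist2h3c1*, so reads over the overlap may belong to that gene. *Hist1h2bp* rose by 1.86 (adjusted p = 0.0357) and *Hist3h2a* by 1.63 (adjusted p = 0.0137). *Hist2h3c1* and *Hist2h2aa1* had at most 3 and 2 reads in any WT PreL library, so they met the filter through WT LZ.
Without WT LZ replicate 2, 2 of the 5 calls remained, and *Hist1h2bc*, *Hist2h2aa1* and *Hist3h2a* were lost. Without WT LZ replicate 3, only that of *Hist1h2bc* remained. Leaving out WT PreL replicate 1 or 2 ended the calls of *Hist1h2bp* and *Hist2h2aa1*, and leaving out replicate 4 that of *Hist1h2bp*. With ERCC-calibrated values, which put the median of all genes at 1.86 against 0.13, 13 members were called higher. The share of all genes called on that scale was not computed, so this count is not read as a result about the members.

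The testis variants did not pass in this comparison. *Hist1h2ba* stood at 12.2 and 18.3 RPM in WT LZ (log2 fold change −0.37 from PreL, adjusted p = 0.447) and *Hist1h2aa* at 3.91 and 4.76 RPM (−0.51, adjusted p = 0.485). On the ERCC-calibrated scale both values were above 0, at 1.42 (adjusted p = 0.0045) and 1.19 (adjusted p = 0.0561), and *Hist1h2ba* was at 0.07 without WT LZ replicate 2. H1t had 10 and 12 reads in WT LZ. Of the S phase genes, 11 of 20 fell at this step, led by *Tk1* (log2 fold change −2.04, adjusted p = 0.00251), *Cdc6* (−1.77, adjusted p = 0.00251) and *Tyms* (−1.75, adjusted p = 0.00251), which serve nucleotide supply and replication licensing. Among factors of histone transcription, *E2f1* (−1.91, adjusted p = 0.00477), *Ccne2* and *Casp8ap2* fell. In decay, *Eri1*, the 3′ exonuclease that trims the stem-loop, fell (−1.06, adjusted p = 0.00942), and the exosome gene *Exosc10* rose (1.19, adjusted p = 0.005). *Mif4gd* of 3′ processing (1.82, adjusted p = 0.00427), *Papolb* (2.38, adjusted p = 0.00586) and *Cstf1* (1.31, adjusted p = 0.0114) of polyadenylation and the chaperone gene *Chaf1b* (1.79, adjusted p = 0.015) rose. Of the replacement histone genes, *H2afy* rose (1.87, adjusted p = 0.00279), and *H1f0* (−1.61, adjusted p = 0.00406) and *H3f3b* (−1.59, adjusted p = 0.00427) fell. All 10 late spermatocyte markers and 6 of 14 spermatid markers were called higher in WT LZ than in WT PreL. So were 8 of 8 Sertoli cell markers tested, at 1398 and 271 RPM in WT LZ against 73.7 to 75.9 RPM in WT PreL. The part of these cells in the 5 members' changes was not tested.

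**Figure D3:**
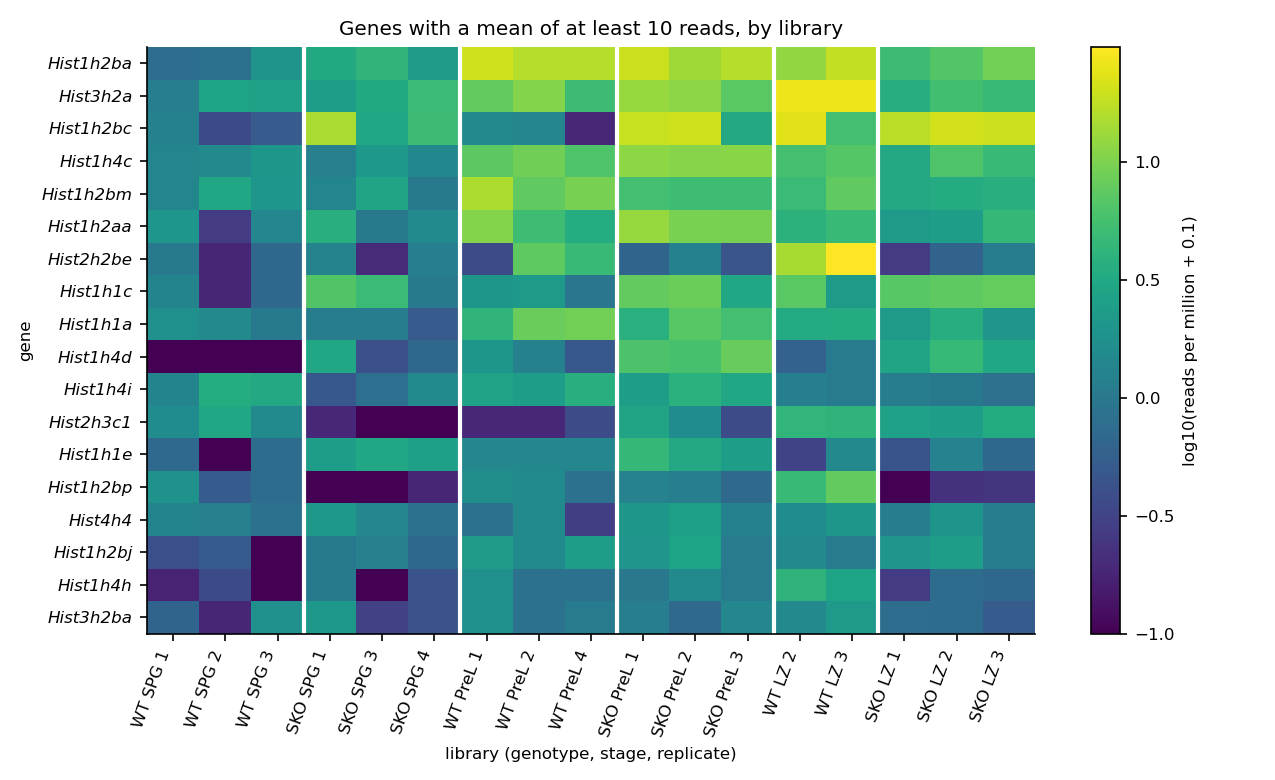
Level of the 18 genes that reached a mean of 10 reads (rows, ordered by mean reads) in the 17 libraries (columns, white lines between groups), as log10(RPM + 0.1). *Hist1h2ba* is at 13.6 to 20.4 RPM in all 6 PreL libraries, while *Hist2h2be* reaches 14.5 and 30.7 RPM in WT LZ and stays at or below 1.20 RPM in the SKO libraries.

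The second question was what the loss of *Nat10* does to these genes in each stage. In SPG, 12 members were tested. By limma 1 was called higher and 0 lower, against 3.95% and 2.06% of all genes, and 4 had an unadjusted p under 0.05. *Hist1h2bc* stood at 1.15, 0.259 and 0.416 RPM in WT and at 14.8, 3.03 and 4.95 RPM in SKO, all SKO libraries above all WT libraries. It rose by 2.38 ± 0.59 (adjusted p = 0.0203). In WT SPG it averaged 7.67 reads, so it met the filter through SKO SPG. The call was lost without WT SPG replicate 2 or 3 or SKO SPG replicate 1, and over its 14 alternatives the adjusted p ran from 0.00056 to 0.0932. Without SKO SPG replicate 4 another gene, *Hist1h1c*, was called higher. SKO SPG replicate 1, with the most *Hist1h2bc*, also held the most of 8 Leydig cell markers (226 RPM, against 63.2 and 108 RPM in the other SKO and 5.61 to 15.5 RPM in the WT libraries). The peritubular myoid markers summed to 484, 401 and 271 RPM in SKO SPG against 1.21 to 43.8 RPM in WT SPG, with 3 of 4 tested called higher. Those of macrophages summed to 173, 114 and 125 RPM against 19.3 to 24.8 RPM, with 5 of 6 tested called higher. Sertoli cell markers summed to 78, 44.7 and 93.8 RPM against 24.3 to 38.9 RPM, with 1 of 6 tested called higher. Of the later germ cell markers, 9 of 14 for spermatids and 3 of 10 for late spermatocytes were called lower in SKO SPG. The part of these cells in the members' changes was not tested. The H3 gene *Hist2h3c1* had 20, 34 and 17 reads in WT SPG and 1, 0 and 0 in SKO SPG. The ratio of RPM over the pooled reads was 63.2 (95% counting interval 11 to 2529), yet its log2 fold change of −1.73 did not pass in limma (adjusted p = 0.0641), while edgeR and DESeq2 each called it lower. *Hist1h2bp*, under the filter of 10 reads there, had 23, 5 and 8 reads in WT SPG and 0, 0 and 1 in SKO SPG, without overlap, a ratio of 32 (95% counting interval 5.39 to 1299). *Hist1h4d*, which also fell short of the filter, had 0 reads in the 3 WT SPG libraries and 32, 3 and 7 in SKO SPG, at least 15.7-fold higher against 3 reads over the WT group. Neither TH2B (1.08, adjusted p = 0.212) nor TH2A (0.53, adjusted p = 0.631) passed. Of the lists on histone mRNA, chaperones, replacement histones and S phase, 1 gene was called, *Rrm1* of ribonucleotide reductase (−1.07, adjusted p = 0.000666). The 20 S phase genes summed to 2444 to 2612 RPM in SKO SPG and 3465 to 3551 RPM in WT SPG, without overlap. Their median log2 fold change was −0.43, against 0.001 over all genes. No test was made of this sum, and its part in the members' changes was not tested.

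In PreL, 3 of 20 members tested were called higher and 0 lower by limma, against 5.32% and 5.83% of all genes. edgeR called 2 higher and 0 lower, DESeq2 3 higher and 2 lower (*Hist1h2bm* and *Hist2h2be*), and 6 members had an unadjusted p under 0.05. *Hist1h4d*, an H4 gene (chr13:23581598-23582735, plus strand), was at 1.96, 1.13 and 0.373 RPM in WT and at 6.06, 5.68 and 8.08 RPM in SKO. The groups did not overlap, and it rose by 2.15 ± 0.46 (adjusted p = 0.0128). *Hist1h2bc* rose by 3.10 ± 0.70 (adjusted p = 0.0169), from 1.40, 1.32 and 0.0932 RPM to 18.8, 20.3 and 3.11 RPM. *Hist1h1c*, the gene of a somatic linker histone, rose by 1.58 ± 0.46 (adjusted p = 0.0425), from 1.96, 2.08 and 0.839 RPM to 7.66, 8.43 and 3.02 RPM.
Without SKO PreL replicate 1, 0 of these calls remained, and without SKO PreL replicate 2 only that of *Hist1h4d*. The call of *Hist1h1c* was also lost without any 1 of the WT PreL libraries. With ERCC-calibrated values, which put the median of all genes at 0.73 against 0.04, 7 members were called higher, without a share over all genes to set beside it.

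The testis variants and *Hist1h2bm* did not pass limma in this comparison, while DESeq2 called *Hist1h2bm* lower. *Hist1h2ba* stood at 19.4, 13.6 and 16.1 RPM in SKO PreL, overlapping the WT libraries (log2 fold change −0.17, adjusted p = 0.636), and at 0.53 (adjusted p = 0.108) on the ERCC-calibrated scale. *Hist1h2aa* was at 12.6, 9.58 and 9.41 RPM (0.76, adjusted p = 0.193), and on the ERCC-calibrated scale it was called higher (1.43, adjusted p = 0.0114). *Hist1h2bm* was at 5.43, 5.06 and 5.06 RPM, below all 3 WT libraries (−0.97, adjusted p = 0.0569). Among the other lists, *E2f1* (−1.20, adjusted p = 0.0124), the testis poly(A) polymerase gene *Papolb* (−2.90, adjusted p = 0.00169), the CAF-1 subunit gene *Chaf1a* (−1.27, adjusted p = 0.00125) and *Rrm1* (−1.03, adjusted p = 0.000433) fell. No gene of histone mRNA 3′ processing or decay was called in PreL or SPG. The 20 S phase genes summed to 2600 to 2857 RPM in SKO PreL and 3496 to 3932 RPM in WT PreL, without overlap. Their median log2 fold change was −0.49, against 0.04 over all genes. No test was made of this sum, and its part in the members' changes was not tested. Markers of later germ cells moved with genotype in PreL too, with 11 of 14 for spermatids (701 to 1154 RPM in WT, 74.2 to 91.8 RPM in SKO) and 8 of 10 for late spermatocytes called lower, and their part in the members' values was not tested.

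In WT LZ and SKO PreL, *Hist1h2bc* and *Hist1h1c* moved with somatic markers. In WT LZ, replicate 2 had 1398 RPM of 9 Sertoli cell markers and replicate 3 had 271 RPM, and *Hist1h2bc* stood at 23.8 and 5.41 RPM and *Hist1h1c* at 7.02 and 2.195 RPM. In SKO PreL, the Sertoli markers summed to 766, 994 and 68.4 RPM and the 8 Leydig cell markers to 272, 462 and 40.8 RPM, and both genes were lowest in the third library. The WT PreL libraries held 73.7 to 75.9 RPM of the Sertoli and 6.25 to 17.7 RPM of the Leydig markers, and the Leydig markers were higher in SKO than in WT in every stage (63.2 to 226 RPM against 5.61 to 15.5 RPM in SPG). None of the Sertoli markers was at 0 in all SKO PreL libraries. In SKO SPG replicates 1, 3 and 4, the Sertoli markers summed to 78, 44.7 and 93.8 RPM and the Leydig markers to 226, 108 and 63.2 RPM. *Hist1h2bc* stood there at 14.8, 3.03 and 4.95 RPM and *Hist1h1c* at 6.38, 4.86 and 0.923 RPM. The part of these cells in the 2 genes' changes was not tested. *Hist1h4d*, at 6.06, 5.68 and 8.08 RPM in the same SKO PreL libraries, was highest in the library with the fewest Sertoli and Leydig markers. In SKO SPG it was highest, at 2.96 RPM against 0.304 and 0.588 RPM, in replicate 1. That library held the most Leydig, peritubular myoid and macrophage markers, and replicate 4 held the most Sertoli markers. The part of somatic cells in the changes of *Hist1h4d* was not tested.

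**Figure D4:**
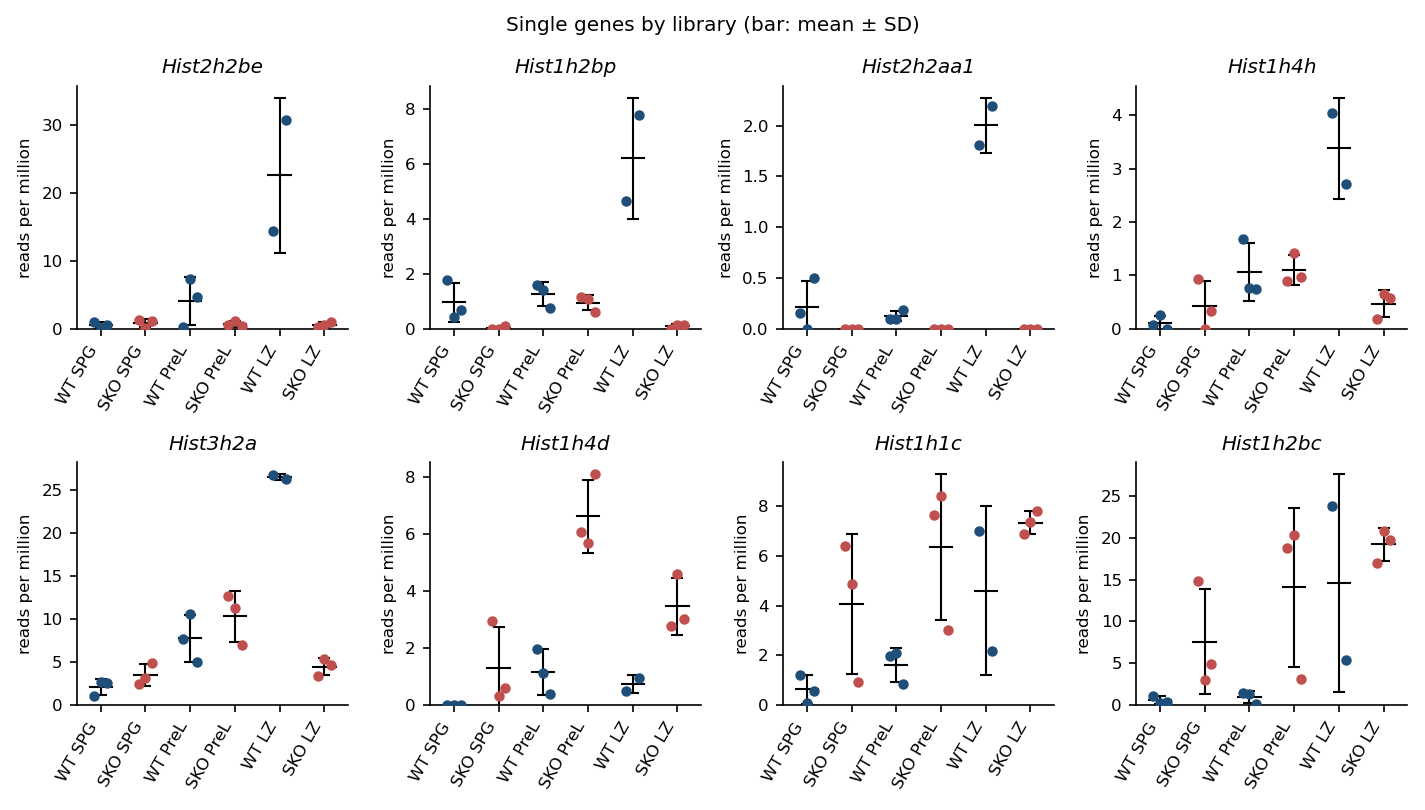
RPM (y axes, linear, from 0) of 8 genes in the 6 groups. Points are libraries (blue WT, red SKO) and black bars the mean ± SD. *Hist2h2be*, *Hist1h2bp*, *Hist2h2aa1*, *Hist1h4h* and *Hist3h2a* are highest in the 2 WT LZ libraries, *Hist1h4d* in the 3 SKO PreL libraries, and *Hist1h1c* and *Hist1h2bc* spread widely within WT LZ.

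In LZ, 18 members were tested, of which 5 were called lower and 2 higher by limma, against 25.8% and 13.4% of all genes. The shares of members, 27.8% and 11.1%, were near those of all genes, and the count is read as no more than that background. edgeR and DESeq2 each called the same 5 lower and *Hist1h4d* higher, and 8 had an unadjusted p under 0.05. The median log2 fold change was −0.35 over the 18 members and −0.13 over all genes.

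The 5 lower genes were 2 H2B, 2 H2A and 1 H4 gene. *Hist2h2be* (chr3:96221119-96223738, plus strand, GENCODE on GRCm38) had 200 and 420 reads in WT LZ and 1, 4 and 7 in SKO LZ, or 14.5 and 30.7 RPM against 0.172, 0.526 and 1.01 RPM. It fell by 4.67 ± 0.66 on the log2 scale (adjusted p = 0.000934). *Hist1h2bp*, another H2B gene (chr13:21787461-21789213, plus strand), had 64 and 106 reads in WT and 0, 1 and 1 in SKO. Its ratio of RPM over the pooled reads was 62.9 (95% counting interval 17.2 to 524), and the log2 fold change was −4.30 ± 0.54 (adjusted p = 0.000514). *Hist2h2aa1* (chr3:96245497-96246082, plus strand) had 25 and 30 reads in WT and 0 in each SKO library, at least 13.6-fold lower against 3 reads over the SKO group (adjusted p = 0.000547). It was at 0 in all 9 SKO libraries.
*Hist1h4h*, an H4 gene (chr13:23531050-23531519, plus strand), was at 4.05 and 2.71 RPM in WT LZ and at 0.172, 0.657 and 0.577 RPM in SKO LZ (−2.21 ± 0.50, adjusted p = 0.00826). *Hist3h2a* (chr11:58954685-58956830, plus strand) was at 26.8 and 26.3 RPM in WT LZ and at 3.44, 5.39 and 4.62 RPM in SKO LZ (−2.17 ± 0.31, adjusted p = 0.000958). Its annotated exon overlaps *Trim17* on the same strand, which had 195 and 49 reads in WT LZ and 0, 1 and 0 in SKO LZ, so reads over the overlap may belong to either gene. For all 5, every SKO LZ library lay below both WT LZ libraries, and the mean RPM was highest in WT LZ among the 6 groups. They were called from these same libraries, so this separation is no further support. *Hist2h2be*, *Hist1h2bp*, *Hist2h2aa1* and *Hist1h4h* had at most 7, 1, 0 and 5 reads in any SKO LZ library, so they met the filter through WT LZ.
The calls of *Hist1h4h* and *Hist2h2aa1* were lost on leaving out WT LZ replicate 2 or 3, when *Hist2h2aa1* no longer reached the filter of 10 reads, and those of *Hist2h2be*, *Hist1h2bp* and *Hist3h2a* held in every fit that tested them.

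The 2 members called higher were *Hist1h4d* and *Hist1h1c*. *Hist1h4d* stood at 0.506 and 0.951 RPM in WT and at 2.75, 4.6 and 3.03 RPM in SKO, without overlap (2.31 ± 0.48, adjusted p = 0.00533). Its RPM was higher in every SKO than in every WT library of the same stage in all 3 stages. *Hist1h1c* was at 7.02 and 2.195 RPM in WT and at 6.88, 7.36 and 7.80 RPM in SKO, with WT replicate 2 inside the SKO range. Its rise of 1.23 ± 0.43 (adjusted p = 0.0473) was lost without WT LZ replicate 3 or any 1 of the SKO LZ libraries, with edgeR and DESeq2, and on the ERCC-calibrated scale. Of the testis variants, *Hist1h2ba* was at 4.99, 6.57 and 9.09 RPM in SKO LZ, below the WT values of 12.2 and 18.3 RPM, with a log2 fold change of −0.77 (adjusted p = 0.153) that did not pass. *Hist1h2aa* was at 2.06, 2.37 and 4.48 RPM (−0.23, adjusted p = 0.708, and 0.08 without WT LZ replicate 3). H1t had 3, 3 and 0 reads.

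Markers of later germ cells moved with the 5 lower genes. The 10 late spermatocyte markers summed to 4051 and 7307 RPM in WT LZ and to 192 to 199 RPM in SKO LZ, and 10 of 10 were called lower. The 14 spermatid markers summed to 1677 and 1517 RPM in WT LZ replicates 2 and 3, against 50.6 to 56.4 RPM in SKO LZ. Of these, 14 of 14 were called lower and 4 were at 0 throughout SKO LZ. Within the WT LZ libraries, replicate 3, the richer in late spermatocyte markers, held more *Hist2h2be* (30.7 against 14.5 RPM) and *Hist1h2bp* (7.76 against 4.63 RPM) but less *Hist1h4h* (2.71 against 4.05 RPM). *Hist3h2a* (26.3 against 26.8 RPM) and *Hist2h2aa1* (2.195 against 1.81 RPM) differed little between these 2 libraries. In WT PreL, *Hist2h2be* stood at 0.280, 7.28 and 4.66 RPM beside 666, 1327 and 483 RPM of the late spermatocyte markers. The part of later cells in these differences was not tested.

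The other lists in LZ are given beside the same background, 25.8% of all genes lower and 13.4% higher. Of the 10 replacement histone genes 4 fell, led by *H2afx* (−1.72, adjusted p = 0.000646), among them *H2afy* (−1.35, adjusted p = 0.00063), while *H2afy2* rose (1.19, adjusted p = 0.0444). Of the 12 genes of 3′ processing 4 fell, led by *Mif4gd*, whose product binds SLBP (−2.42, adjusted p = 0.000321) and *Ncbp1* of the cap-binding complex (−1.34, adjusted p = 0.00789). One, the U7 snRNP component *Lsm11*, rose (1.72, adjusted p = 0.00126). Of 9 genes of histone mRNA decay 3 fell, *Upf1* (−1.25, adjusted p = 0.00742), *Exosc10* (−1.10, adjusted p = 0.00216) and the uridylyltransferase gene *Zcchc6* (−1.07, adjusted p = 0.0294). *Papolb* fell by 5.85 (adjusted p = 0.000106), the only 1 of 15 genes of canonical polyadenylation to be called. Of the 13 chaperone genes 2 fell, *Chaf1a* (−1.87, adjusted p = 0.000821) and *Chaf1b* (−1.87, adjusted p = 0.00301), which each encode a CAF-1 subunit. *Coil*, the coilin gene, was called lower among 10 histone transcription genes (−1.52, adjusted p = 0.00707). Of 20 S phase genes, *Gins2* fell (−2.202, adjusted p = 0.00087) and 3 rose, led by *Ccna2* (1.499, adjusted p = 0.000161) and *Cdt1* (1.43, adjusted p = 0.00513).

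**Figure D5:**
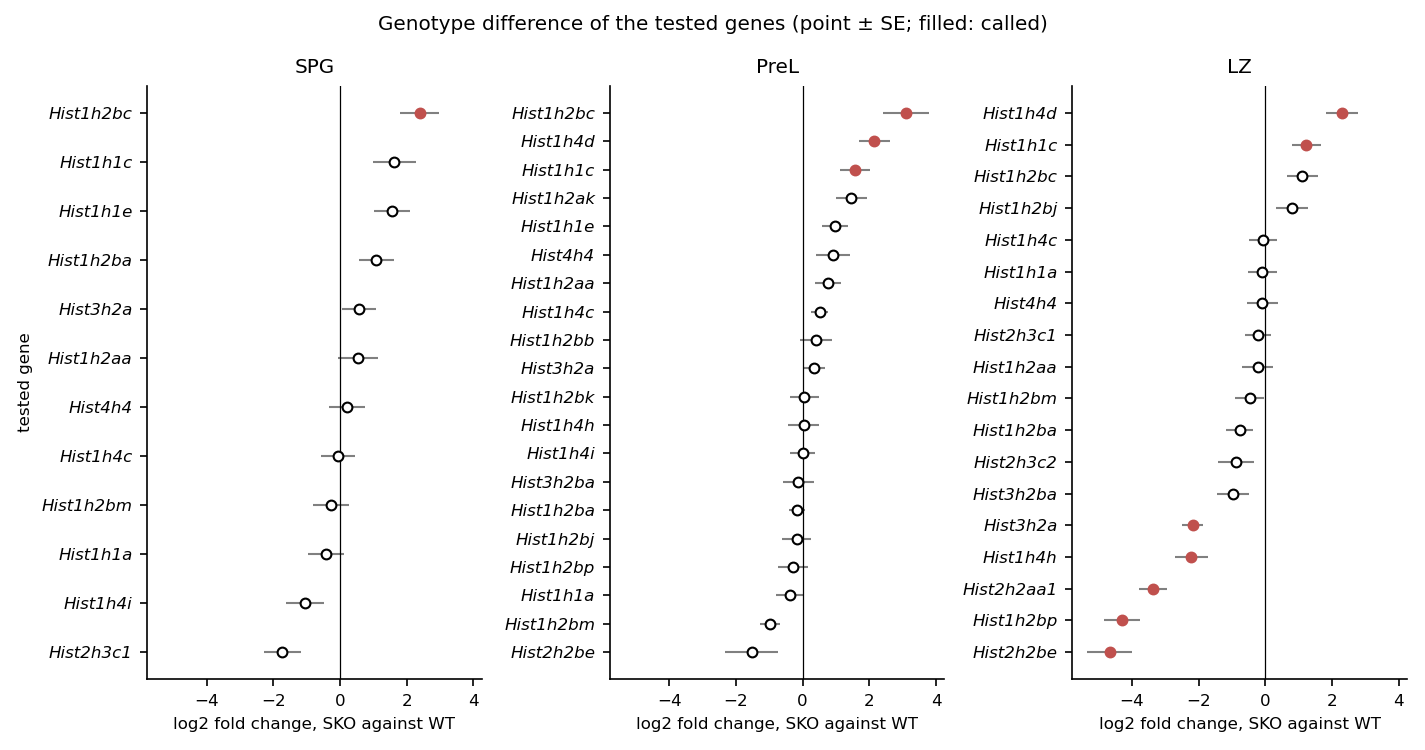
Log2 fold change of SKO against WT, on log2(rescaled value + 10), for the 12 genes tested in SPG, the 20 in PreL and the 18 in LZ (rows, ordered by value). Points are the estimates, bars ± 1 SE, and filled points the called genes. All 4 called changes in SPG and PreL are above 0, while in LZ 5 of the 7 called changes are below 0, the lowest that of *Hist2h2be* at −4.67. Of all genes tested, 3.95% were called higher and 2.06% lower in SPG, 5.32% and 5.83% in PreL, and 13.4% and 25.8% in LZ. The directions are not read as particular to these genes.

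Whether the effect of genotype differed between LZ and PreL was tested by an interaction term over all 17 libraries, called at an adjusted p under 0.05. Of 18 members tested, 3 had a lower effect in LZ and 0 a higher one by limma, against 23.1% and 15.1% of all genes. The members' share of lower effects, 16.7%, was below that of all genes, and the count is not read as a result about the members. Of the late spermatocyte markers 6 of 10 and of the spermatid markers 6 of 14 also had a lower effect in LZ. Their part in the members' values was not tested. edgeR called 2 lower and 0 higher, DESeq2 4 and 0, and 5 had an unadjusted p under 0.05. The median interaction was −0.74 over the members and −0.31 over all genes. *Hist1h2bp* was at 1.16, 1.06 and 0.622 RPM in SKO PreL beside 1.59, 1.42 and 0.746 RPM in WT PreL, with overlap (interaction −3.21 ± 0.70, adjusted p = 0.00143). *Hist3h2a*, at 12.7, 11.3 and 7.02 RPM in SKO PreL beside 7.66, 10.6 and 5.04 RPM in WT PreL, had an interaction of −2.46 ± 0.59 (adjusted p = 0.00298). That of *Hist1h4h* was −1.91 ± 0.72 (adjusted p = 0.0436), and its call was lost with edgeR (adjusted p = 0.244), DESeq2 (adjusted p = 0.226) and a pseudocount of 1 (adjusted p = 0.218). It was also lost without WT PreL replicate 2 or 4, any 1 of the SKO PreL libraries or SKO LZ replicate 1 or 3 (adjusted p up to 0.104), and without either WT LZ library the gene fell under the filter. For *Hist2h2be* the interaction of −2.72 did not pass (adjusted p = 0.0589), and neither variant passed (*Hist1h2ba* −0.56, adjusted p = 0.463, and *Hist1h2aa* −0.96, adjusted p = 0.365). With ERCC-calibrated values, which put the median of all genes at −1.12, 8 members were called lower, without a share over all genes to set beside it.

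In 14 pairs of members, the annotated starts lay head to head on opposite strands, 172 to 659 bases apart. *Hist2h2be*, with up to 420 reads, faces *Hist2h2ac*, whose start is 238 bases away and which had at most 4 reads in any library. *Hist1h2bp*, with up to 106 reads, faces *Hist1h2an* at 242 bases, which had at most 3 reads, and *Hist1h2bc*, with up to 329 reads, faces *Hist1h2ac* at 250 bases, with at most 22. *Hist3h2a*, with up to 371 reads, faces the pseudogene *Hist3h2bb-ps* at 172 bases, with at most 4. In the pair of TH2A and TH2B both genes had more, up to 142 for *Hist1h2aa* and up to 250 for *Hist1h2ba*. Per length, *Hist1h2ba* stood at 45.7 RPKM (RPM divided by kilobases of annotated exon) and *Hist1h2aa* at 16.2 RPKM in WT PreL, and at 42.6 and 27.0 RPKM in SKO PreL.
Per length, the order of the members changed between groups. It depends on the annotated exon length, from 384 bases for *Hist1h2ba* to 2146 for *Hist3h2a* and 2620 for *Hist2h2be*, and is not corrected for shared sequence. *Hist1h2ba* led in WT PreL, ahead of *Hist1h2bm* (20.3 RPKM) and *Hist1h2aa*, and it led in WT LZ with 39.6 RPKM, ahead of *Hist1h2bc* (12.6 RPKM), *Hist3h2a* (12.4 RPKM) and *Hist1h2bm* (11.8 RPKM), which were close to one another. In SKO LZ, *Hist1h2ba* (17.9 RPKM) and *Hist1h2bc* (16.6 RPKM) stood together at the top, and *Hist1h2bp* and *Hist2h2be* were at 0.130 and 0.217 RPKM.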

How the data were processed

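RNA-seq libraries (Smart-seq2, oligo(dT)-primed, with ERCC spike-in) of sorted cells were analysed from 1 deposited table. The authors mapped trimmed reads to mm10 and counted unique reads per gene with HTSeq 0.11.2. TopHat2 2.1.1, Cufflinks 2.2.1, DESeq2 and the builds mm9 and mm10 are listed in the submitters' processing notes, and strandedness is not given in the sources used here. The authors then calibrated the counts by the spike-in and the cell input and deposited the result, a signal equal to the reads times 1 factor per library. For WT SPG replicate 1 the factor was 1, so its deposited values are the counts. In the other libraries all values were whole multiples of 1 read (100% within 0.01 reads), which gave back the reads.

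For each comparison, median-of-ratios size factors rescaled the values of its libraries. Genes that averaged 10 or more reads entered limma 3.58.1 (R 4.3.3, mean-variance trend) on log2(rescaled value + 10), with Benjamini-Hochberg adjustment over all genes tested. edgeR 4.0.16 and DESeq2 1.42.0 on the recovered reads, ERCC-calibrated and TMM scaling, a pseudocount of 1 or 50, dropping the filter or raising it to 50 reads, a replicate block and leaving out each replicate were alternatives. The steps were tested on simulated data. Shares of all genes called were computed for the main limma fits only, so member counts of the alternatives stand without that background. So do the counts of members with an unadjusted p under 0.05. RPM is relative to all recovered reads of a library. Windows and transcript ends came from GENCODE for GRCm38, which matched all 68 symbols, promoters from RefSeq. A window of 100 bases counted as a gene's own if no gene annotated elsewhere held it, a definition set after the first values were seen.

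The genes named are the testis variants, members averaging 100 or more reads, the 3 members with the largest called change in each comparison and direction, up to 3 called genes per other list, and *Nat10*. *Hist1h4c*, *Hist1h4h* and *Hist3h2a* as called genes beyond these, *Hist2h3c1* and *Hist1h4d* in SPG, *Hist1h2bm* and *Hist2h2be* outside their calls, and the pairs were named after their values were seen. The members and lists were chosen with earlier results of these data known.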

Additional observations from a re-analysis of the deposited data

Results flagged for a closer look

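The effect of genotype differed between LZ and PreL, by a test of the difference itself (limma interaction over all 17 libraries), for *Hist1h2bp* (−3.21, adjusted p = 0.00143), *Hist3h2a* (−2.46, adjusted p = 0.00298) and *Hist1h4h* (−1.91, adjusted p = 0.0436). *Hist1h2bp* was lower in 3 of 3 SKO LZ libraries than in both WT LZ libraries, and so were the other 2. These genes were picked by a test on the same libraries, so this separation is no further support. They are 3 of 18 members tested (16.7%), against 23.1% of all genes with a lower effect in LZ, so their number does not exceed that background. Across their alternatives the adjusted p ran from 2.04e-05 to 0.0207 for *Hist1h2bp*, from 0.000202 to 0.0197 for *Hist3h2a* and from 0.0022 to 0.244 for *Hist1h4h*.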

How the results depend on the processing

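Of 451 alternative values for single genes, 387 kept their direction and side of the threshold, 51 were no longer past it, 7 newly passed and 6 changed sign. Of 196 alternative member counts 152 stayed within 1.5 times the main count, and 23 of 26 summed ratios stayed within their spread. The 152 include main counts of 0 that stayed at 0. The 387 include values of testis variants that were not called in the main fit either. The cause of the changes below was not tested, except that a stricter filter tests fewer genes. With no filter, members called were 0 higher and 1 lower in SPG, 5 higher in LZ, 1 higher from WT SPG to PreL, and 8 lower and 2 higher in the interaction. At a mean of at least 50 reads they were 0 higher in SPG, 1 in PreL, 1 higher and 2 lower in LZ, 2 higher from WT SPG to PreL, 2 higher from WT PreL to LZ, and 1 lower in the interaction. ERCC-calibrated values gave 7 higher in PreL, 1 higher in LZ, 13 higher from WT PreL to LZ and 8 lower in the interaction, with summed ratios of 0.631 in LZ and 2.19 in PreL, and median-of-ratios scaling gave 0.683 in LZ. A pseudocount of 1 gave 1 higher in LZ and 3 from WT PreL to LZ. edgeR and DESeq2 each gave 1 lower in SPG and 1 higher in LZ, and DESeq2 also 2 lower in PreL and 1 lower from WT SPG to PreL. Values that changed sign were *Hist1h2ba* in PreL (0.53 ERCC-calibrated and 0.00090 without SKO PreL replicate 2, with a range of −0.28 to 0.00090 on leaving out 1 replicate), *Hist1h2aa* in LZ (0.082 without WT LZ replicate 3, range −0.59 to 0.082) and, from WT PreL to LZ, *Hist1h2aa* (1.19) and *Hist1h2ba* (1.42) when ERCC-calibrated and *Hist1h2ba* (0.075, range −0.83 to 0.075) without WT LZ replicate 2.

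Leaving out 1 replicate gave 0 to 2 members higher in SPG, 0 to 4 higher and 0 to 1 lower in PreL, 1 to 3 higher and 3 to 5 lower in LZ, 1 to 3 higher from WT SPG to PreL, 1 to 4 higher from WT PreL to LZ and 2 to 4 lower in the interaction. Where this left 1 WT LZ library, that library was assumed to vary like the others. With the replicate number as a block, 5 members were lower in the interaction. The block ended the calls of *Hist1h1a* from WT SPG to PreL (1.55, adjusted p = 0.118) and *Hist1h4h* in the interaction (−1.53, adjusted p = 0.209). It added *Hist1h2aa* and *Hist3h2a* to the former, *Hist1h2bc*, *Hist2h2be* and *Hist2h3c1* to the latter and *Hist1h2bc* in LZ. The 2 groups of each genotype comparison and of WT SPG and PreL shared 2 numbers, and the deviations of same-numbered samples correlated at −0.0868 to 0.144, so the numbers were not taken as pairs. There was no block for WT PreL to LZ, which share 1 number. Low reads left 50 members untested in LZ and 56 in SPG.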
